A study of Mus musculus with 4 samples.

Results

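Spots over the reticular thalamic nucleus were examined on 4 coronal Visium-FFPE sections of the mouse brain. They were chosen by measured values. In each section, spots with at least 500 UMIs (unique molecular identifiers, the count of distinct probe molecules) and 250 genes were kept, and each was scored by the mean over Six3, Pvalb, Spp1, Gad1 and Lancl3 of ln(1 + UMIs per 10000 UMIs of that spot). The 45 spots with the highest score in each section were taken as reticular spots, which gave 180 spots of the 13452 kept. A spot is a small area of tissue that can hold several cells, so the values describe patches rather than single neurons.

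The reticular thalamic nucleus is a thin shell of inhibitory neurons that wraps the lateral face of the thalamus. Its neurons use GABA, fire bursts driven by low-threshold calcium channels, receive branches of the axons that run between cortex and thalamus, and inhibit the relay nuclei. The nucleus is known for its part in sleep spindles, attention and the gating of sensory signals, and it develops from the prethalamus, separately from the glutamatergic relay nuclei next to it.

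All 4 sections came from wild-type male offspring of C57BL/6J dams, collected on postnatal day 21. In the MF group (median folate in the labels), the dams ate 2 mg/kg folic acid (FA), and in the HF group (high folate) they ate 20 mg/kg FA, from 2 weeks before mating and on through lactation. Each diet had 2 sections, described in the study as biological replicates. The litters of the pups were not given in the sources used here, so p-values measure the spread between these sections.

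The sections differed in depth and in the tissue they held. Summed over the reticular spots, MF replicate 1 had 1834569 UMIs and MF replicate 2 had 616356, against 381410 for HF replicate 1 and 805602 for HF replicate 2. HF replicate 2 stood apart from the other sections. Over its spots outside the nucleus, Oxt, the transcript of oxytocin, reached 647 CPM (the UMIs of a gene per 1000000 UMIs of the summed spots), against 0.703 to 4.14 CPM in the other sections, and Pmch, the transcript of melanin-concentrating hormone, was at 0.719 CPM against 324 to 691 CPM. Diet and the tissue held cannot be told apart in that section. The genes called between diets in the reticular spots are given below with and without it. Many other diet values are given only with it included. Of 4266 spot barcodes used in any section, 2474 occurred in all 4, because every array carries the same barcode set.

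The reticular spots formed a thin curved band. Position was not part of the rule, yet a single group of touching spots held 43 of the 45 in MF replicate 1 and 42 in MF replicate 2, and for HF replicate 1 it held 39. In HF replicate 2, the band reached over more columns and bent under the relay thalamus spots, and it fell into groups of which the largest held 30 spots. The 6 spots of that section outside groups of 5 or more had 12.4 CPM of Spp1 and 520 CPM of Ecel1, a gene described below. The medians over its 45 reticular spots were 147 and 72.9 CPM. Six3 had 855 CPM in the 6 spots and a median of 841 CPM. Whether the bent part belongs to the nucleus or to other tissue was not tested. Each spot has 6 neighbours on the array. Of the neighbours of reticular spots, 46.7% in HF replicate 2 and up to 61.5% in the other sections were reticular spots themselves, whereas reticular spots made up 1.25% to 1.41% of the kept spots. In each section, 1 or 2 reticular spots touched no other.

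**Figure D1:**
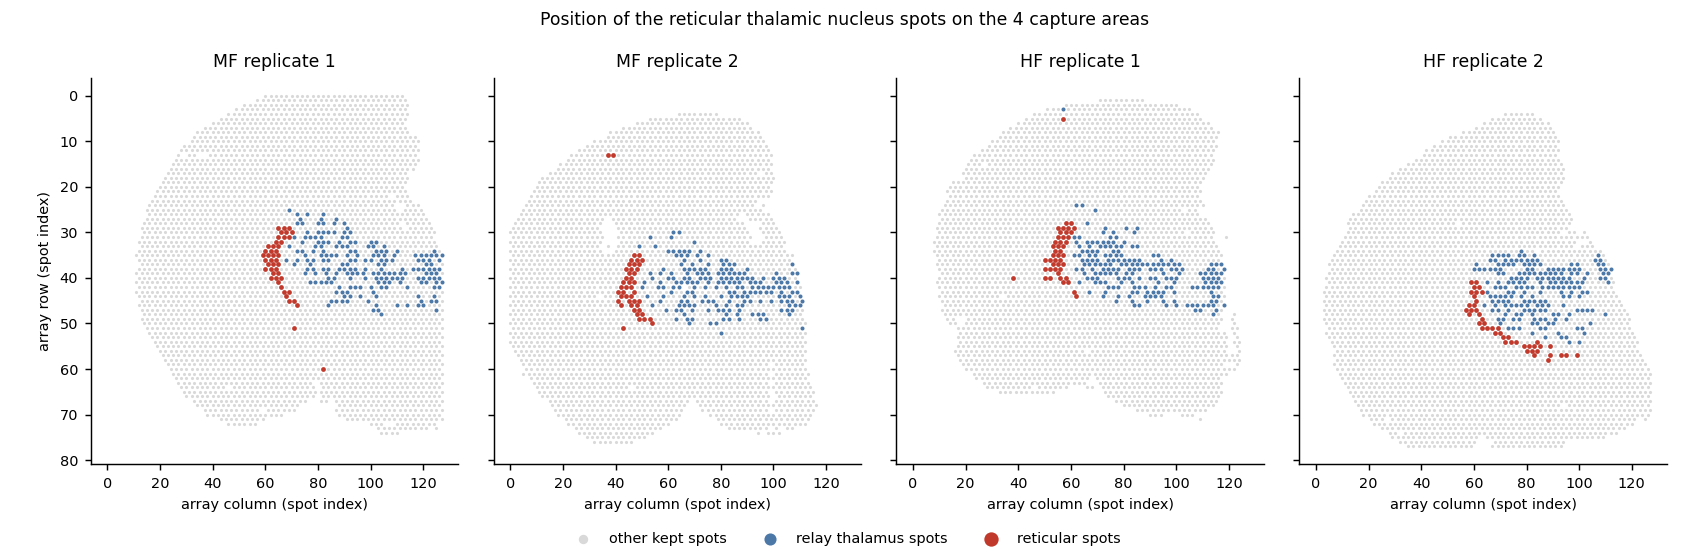
Position of the spots on the 4 capture areas, with the array column and row as axes, reticular spots in red, 200 relay thalamus spots per section in blue and other kept spots in grey. The reticular spots form a band on the outer side of the relay thalamus spots, of which 0 to 2 per section touch it, and the largest group in HF replicate 2 reaches over columns 57 to 76. A few reticular spots lie far from the band, such as those near the top of MF replicate 2 and HF replicate 1.

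The cut at 45 spots fell at different scores. The last spot inside and the first outside scored 1.15 and 1.14 for MF replicate 1 and 0.966 and 0.937 for MF replicate 2. They scored 0.946 and 0.916 for HF replicate 1, and 1.57 and 1.55 for HF replicate 2. The reticular spots of HF replicate 2 were therefore the top of a larger set, with 96 spots at a score of at least 1.2 against 31 to 40 in the other sections. The median score of the reticular spots ranged from 1.47 to 1.82, and that of all kept spots from 0.175 to 0.296.

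The 5 genes of the rule encode a transcription factor of the forebrain (Six3), the calcium buffer parvalbumin (Pvalb), the secreted glycoprotein osteopontin (Spp1), a GABA-synthesising enzyme (Gad1) and a LanC-like protein (Lancl3). In the mm10 (GRCm38) assembly, Six3 lies at chr17:85613608-85629302, Pvalb at chr15:78191114-78206400, Spp1 at chr5:104435118-104441050, Gad1 at chr2:70553072-70602014 and Lancl3 at chrX:9199902-9268085. Their levels describe the choice and are not evidence for it. Six3 had 433, 524, 674 and 823 CPM in the reticular spots (MF replicates 1 and 2, then HF replicates 1 and 2, the order of all lists of 4 values below) and 28.4 ± 15.1 CPM (SD, n = 4 sections) in all other spots. Pvalb had 2219, 2398, 2265 and 3016 CPM, against 145 ± 46.3 CPM elsewhere. Spp1 was the most uneven of the 5 genes, with at least 1 UMI in 42, 25, 18 and 34 of the 45 spots.

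Markers of the nucleus that the rule did not use followed the same band. Of 9 further reticular markers with a mean level of at least 10 CPM, 5 were at least 2-fold higher in reticular spots than in the other kept spots of every section. Over all 10159 features at that level, 89 (0.876%) were that much higher and 63 (0.62%) that much lower. The spots were picked on their own counts, so this comparison has no test. The 5 markers were Gad2 and Slc32a1, which encode a GABA-synthesising enzyme and the vesicular GABA transporter, the transcription factor gene Isl1, Cacna1i, which encodes the low-threshold calcium channel Cav3.3, and Trh, the precursor of thyrotropin-releasing hormone.

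Gad2 had 851, 840.4, 1101 and 1195 CPM in the reticular spots. The other spots had 263 ± 33.5 CPM and the relay thalamus spots 99.1 CPM on average. All 4 sections lay above both. Slc32a1 reached 113, 151, 197 and 165 CPM, against 36.2 ± 1.24 CPM in the other spots and 13.1 CPM in the relay thalamus spots. Trh varied most, with 124, 208, 294 and 111 CPM, and its log2 ratio to the other spots ran from 1.97 in HF replicate 2 to 5.54 in HF replicate 1. Outside the nucleus Trh was higher in HF replicate 2 (28.2 CPM) than in the other sections (6.08 to 7.58 CPM).

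The remaining further markers were less specific. Ecel1, which encodes an endothelin-converting enzyme-like protease, had 71.9, 63.3, 110.1 and 140.3 CPM, with log2 ratios to the other spots of 0.13 to 1.35. Gabra3, a GABA-A receptor subunit gene, had ratios of 0.37 to 1.12, Erbb4, a neuregulin receptor gene, 0.34 to 0.90 and Meis2, a homeobox gene, 0.85 to 2.07. Ptchd1, which encodes a patched-domain membrane protein known from the nucleus, stayed below the minimum, with at most 10.5 CPM in any section.

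Markers of the tissues next to the nucleus bear on the label. The 8 relay thalamus markers summed to 446 to 788 CPM in reticular spots and 961 to 1423 CPM in the other spots. In the relay thalamus spots they summed to 4559 to 4886 CPM. The relay thalamus spots were the 200 spots per section with the highest score for Prkcd, Tcf7l2, Lef1, Slc17a6 and Rora. These genes are among the 8 markers, so the high sum there follows from the choice. Defining markers of the globus pallidus were low, with Lhx6 at 3.72 to 7.87 CPM and Nkx2-1 at 0.00 to 6.00 CPM, and the cholinergic basal forebrain genes Chat and Slc5a7 reached at most 6.00 and 5.24 CPM. Kcng4, a potassium channel gene listed here under globus pallidus, was the exception, with 112, 74.6, 126 and 120.4 CPM against 12.4 ± 3.33 CPM elsewhere. The 8 striatum genes summed to 485, 506, 582 and 500.2 CPM in reticular spots, within the 466 to 806 CPM of the other spots and above the 277 to 382 CPM of the relay thalamus spots. Of these, Ppp1r1b, which encodes the phosphoprotein DARPP-32, had 164 to 187 CPM, while Drd1, a dopamine receptor gene, had at most 3.72 CPM. The part of striatal tissue in the levels of these spots was not tested. The 8 oligodendrocyte genes were at a median log2 ratio of 1.14 in reticular spots, but the spots within 2 array steps held still more of them, with a summed level of 54690 to 73150 CPM against 38680 to 60190 CPM in the reticular spots.

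Levels of the GABA genes fell steeply at the edge of the band. In MF replicate 1, Gad2 went from 851 CPM in reticular spots to 301 CPM at 1 array step and 213 CPM at 2 steps. Slc32a1 went from 113 CPM to 41.3 CPM at 1 step in the same section. In HF replicate 2, the fall was slower, with Gad2 at 1195, 783 and 377 CPM at 0, 1 and 2 steps. Ecel1 changed little across the edge in MF replicate 1, with 72.0, 67.2 and 65.7 CPM at 0, 1 and 2 steps, and in HF replicate 2, with 140.3, 135 and 112 CPM. In HF replicate 1 it went from 110.1 to 59.2 and 31.4 CPM. Prkcd, a protein kinase C gene used as a marker of relay neurons, went the other way, from 237, 140, 134 and 50.9 CPM in the reticular spots to 474, 391, 397 and 191 CPM at 1 step. Mbp, which encodes myelin basic protein, was higher at 1 step than in the reticular spots in every section, for example 23483 against 17965 CPM in MF replicate 1.

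**Figure D2:**
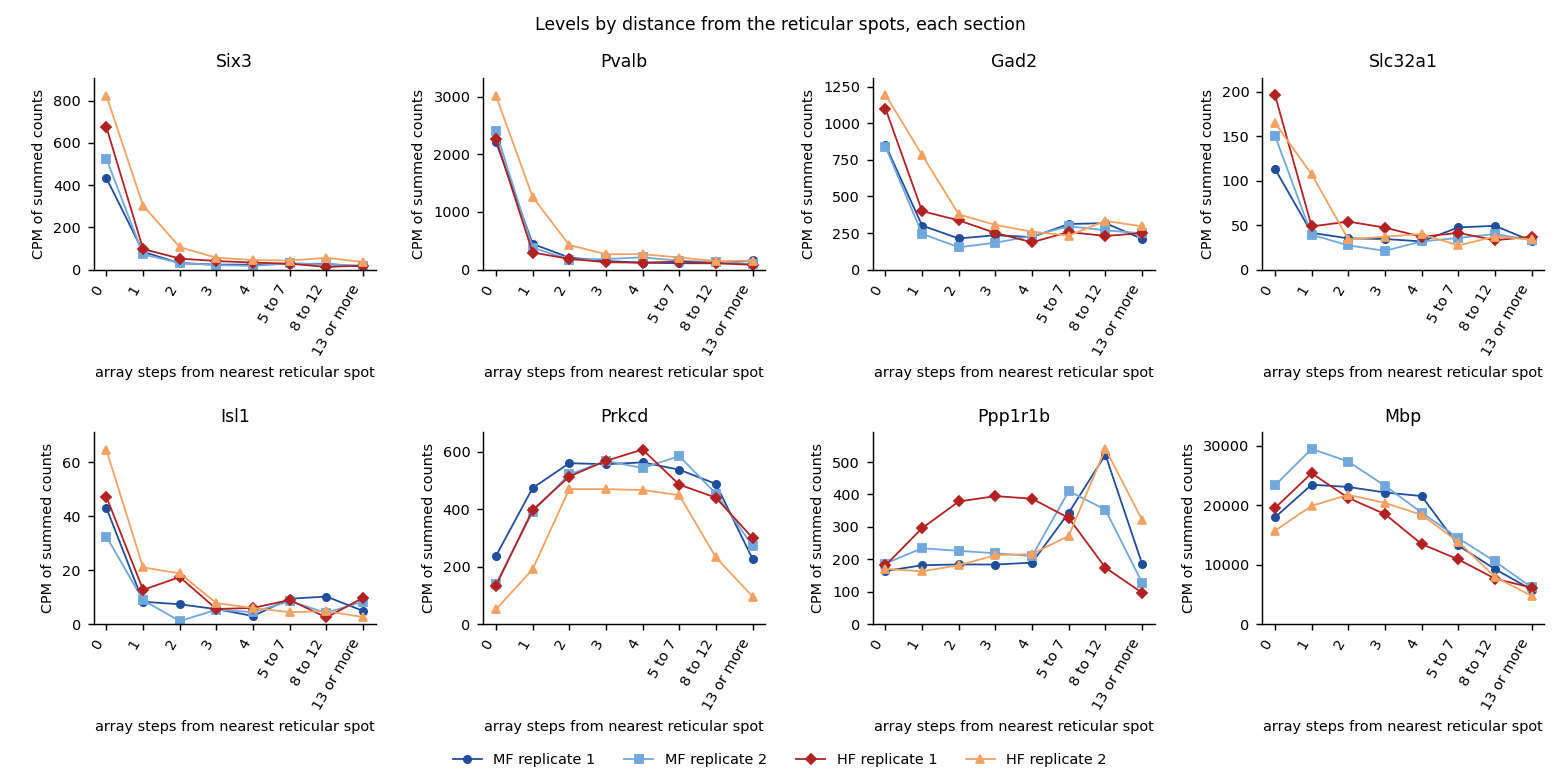
Levels by distance from the nearest reticular spot, counted in array steps (0 is the reticular spots themselves), as CPM of the summed counts in each section. Six3 and Pvalb belong to the rule and fall by construction; Gad2, Slc32a1 and Isl1, which the rule did not use, fall within 1 or 2 steps, Prkcd rises, and Mbp is higher at 1 step than at 0.

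Beyond the fixed markers, the genes with the highest ratio in all sections were headed by Pln, which encodes phospholamban, a regulator of the calcium pump of the endoplasmic reticulum. It had 44.2, 60.03, 55.1 and 47.2 CPM in reticular spots and 2.27 ± 0.451 CPM elsewhere, with log2 ratios of 3.94 to 4.79. The nuclear receptor gene Esrrg followed, with 174, 169, 228 and 253 CPM against 21.9 ± 5.77 CPM, and its relative Esrrb had 36.0, 29.2, 31.5 and 49.7 CPM against 4.32 ± 0.291 CPM. Pln and Esrrg were picked by their lowest ratio over the sections, so their high level in each section follows from the choice. Esrrb, from the gene lists, was also higher in each section. The values are section sums and do not show the overlap of single spots.

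Lgi2, which encodes a secreted protein of the LGI family that acts at synapses, had 295, 297, 307 and 288 CPM, a spread much smaller than its distance from 38.7 ± 2.28 CPM in the other spots. Megf11, a gene of a cell-surface protein with EGF-like repeats, was as even, at 156, 157, 157 and 169 CPM against 21.2 ± 1.35 CPM. Frem3, Bmper and Serpinf1, which encode extracellular matrix or secreted proteins, had mean log2 ratios of 3.36, 2.34 and 2.34.

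Single genes of transmitter release and fast spiking were at least 2-fold higher in each section, while most members of their groups were not. Of 14 synaptic vesicle and release genes, Syt2 was the only member at least 2-fold higher in each section, and the median log2 ratio was -0.0033. Syt2, which encodes a fast calcium sensor for transmitter release, had 189, 169, 170.4 and 227 CPM against 36.7 ± 3.68 CPM, and Cplx3, a complexin gene, had log2 ratios of 1.81 to 3.11. Kcnip1, which encodes a protein that binds Kv4 potassium channels, had 295 to 385 CPM against 77.9 ± 2.50 CPM. Of 12 fast-spiking channel genes, Kcnc1, which encodes the potassium channel Kv3.1, and Scn4b, a sodium channel subunit gene, were at least 2-fold higher in each section. The median log2 ratio of the 12 to the other spots was 0.42. They summed to 3139 to 3311 CPM, above the 2348 to 2564 CPM of the other spots and below the 3576 to 3774 CPM of the relay thalamus spots. Kcnc2, another Kv3 gene, was lower than in the other spots, with log2 ratios of -1.16 to -0.36.

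The channels of burst firing split by isoform. Cacna1i had 144, 120.1, 149 and 173 CPM in reticular spots against 18.8 CPM in the relay thalamus spots, a mean log2 ratio of 2.96. Cacna1g, the isoform gene known from relay neurons, had 39.3, 35.7, 18.4 and 38.5 CPM against 151 CPM there, with log2 ratios of -3.10 to -1.87. Cacna1h, the remaining isoform gene, was 1.11 to 2.04 log2 units higher than in relay thalamus. Kcnn2, which encodes the SK2 potassium channel, had ratios to relay thalamus of 1.29 to 1.79.

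Receptor genes of the reticular spots were mostly lower than in all other kept spots. The spots within 2 array steps were closer for glutamate receptors. Those 17 genes summed to 2620, 2297, 2538 and 2471 CPM in reticular spots and 2458, 2563, 2837 and 2422 CPM within 2 steps. The 12 GABA-A receptor subunit genes summed to 1012 to 1263 CPM, below the 1330 to 1749 CPM within 2 steps. Of 12 GABA-A receptor subunit genes, Gabra5 was at least 2-fold lower in every section, and the median log2 ratio of the 12 was -0.92, against -0.08 over all features. Gabra4 and Gabrd, genes of extrasynaptic subunits, were 2.08 to 2.71 and 1.49 to 2.03 log2 units below the relay thalamus spots. Among 17 glutamate receptor genes, Grm3, a group II metabotropic receptor gene, was the member at least 2-fold higher in each section (152, 141, 189 and 169 CPM against 49.2 ± 3.75 CPM), and Gria1, an AMPA receptor gene, was the one at least 2-fold lower. Chrm2, a muscarinic receptor gene, had 59.4, 32.5, 86.5 and 67.0 CPM, above 20.4 ± 3.44 CPM in the other spots of each section.

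Genes of excitatory neurons were low. Slc17a7, which encodes a vesicular glutamate transporter of cortex, had 925, 732, 742 and 605 CPM against 1813 ± 89.8 CPM in the other spots. At 1 array step it had 1009, 1162, 1146 and 701 CPM, so part of the low level was shared by the nearest spots. Slc17a6, that of the thalamus, had 80.7, 32.5, 44.6 and 43.5 CPM against 532 CPM in relay thalamus. The relay thalamus spots were chosen partly on Slc17a6, so its high level there follows from the choice. Calb2, the calretinin gene, had 92.1, 32.5, 91.8 and 93.1 CPM against 298 ± 37.6 CPM. Grm2 and Bdnf, genes of a metabotropic glutamate receptor and a neurotrophin, had mean log2 ratios of -2.38 and -1.77. Of the immediate early genes, Arc, an activity-regulated gene of dendrites, was at least 2-fold higher in each section and Egr3 at least 2-fold lower.

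**Figure D3:**
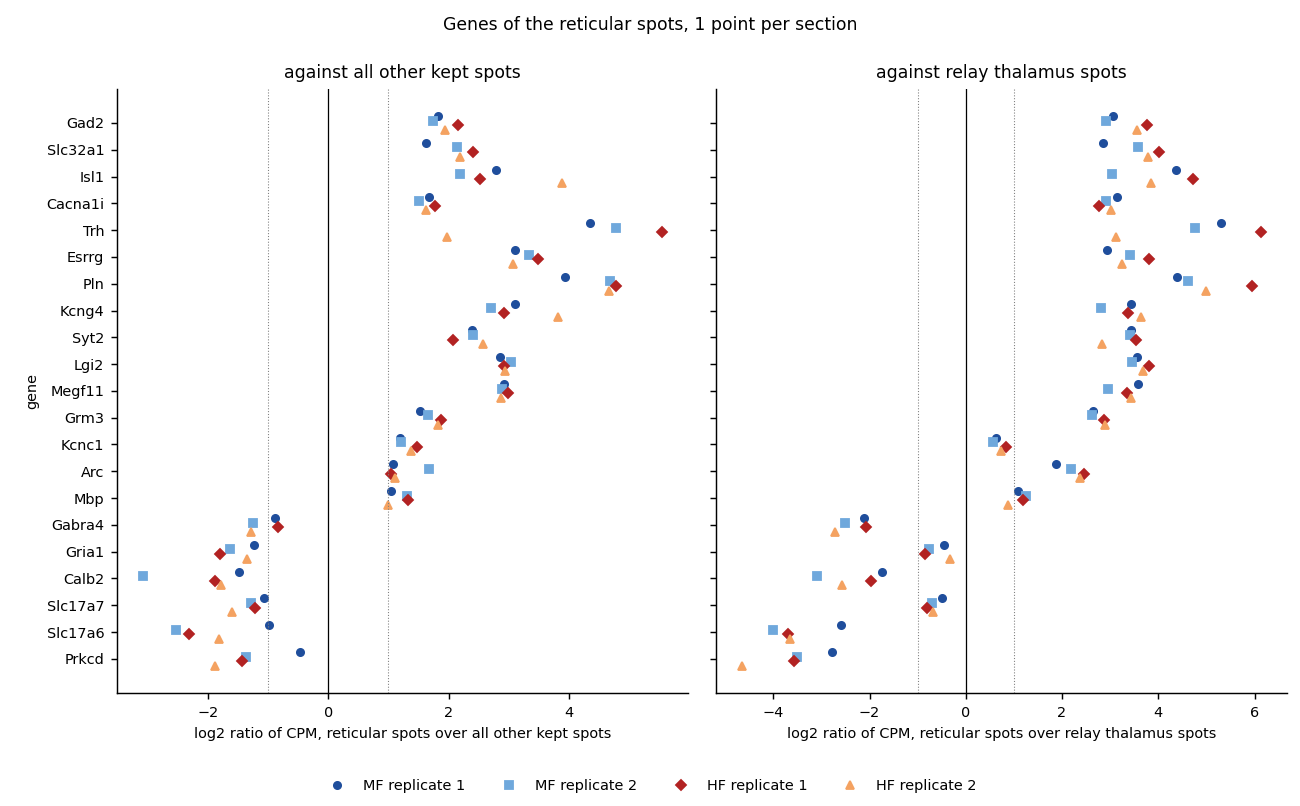
Log2 ratio of the CPM in reticular spots to that in all other kept spots (left) and in relay thalamus spots (right), with 1 point per section and dotted lines at 2-fold. Gad2, Slc32a1, Isl1, Cacna1i and the leading genes Esrrg, Pln and Kcng4 lie to the right of 2-fold in each section. Slc17a6 and Prkcd lie furthest to the left against relay thalamus, whose spots were chosen partly on these genes.

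Against the spots within 2 array steps, which surround the band, 70 features were at least 2-fold higher in every section and 7 lower, of 10099 features. These spots held more of the oligodendrocyte genes than the reticular spots in each section. In HF replicate 2, Six3 and Gad2 were still at 303 and 783 CPM at 1 step, against 84.2 and 301 CPM in MF replicate 1. The set thus holds tissue like the reticular spots in that section. Of those 70, 55 were also among the 89 against all other spots. For the lower genes, 2 of the 7 were among the 63.

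The reticular spots also differed among themselves. Across the 180 spots with section means removed, the log levels of the neurofilament genes Nefm and Nefh rose with those of Spp1 (Pearson's r of 0.57 and 0.50), while Ecel1 fell (r of -0.37). In single sections r for Spp1 and Nefm ran from 0.43 to 0.77, and for Spp1 and Ecel1 from -0.62 to -0.13. These are descriptions. The spots share their section and neighbours, vary in depth, and were selected partly on Spp1. Between Mbp and Gad2, r was -0.02.

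Levels changed along the band. The 45 spots of each section were split by array row into 15 upper, 15 middle and 15 lower spots, upper being the cortical side. This split was added after the band had been seen. In edgeR's quasi-likelihood test with section as a block, 22 of 5501 genes (0.4%) were higher in the upper than in the lower spots and 11 (0.2%) were lower, at an adjusted p under 0.05 and at least 1.2-fold. The few spots apart from the band were included. In HF replicate 2, most of the lower spots lay in the part bent under the relay thalamus spots. All 8 oligodendrocyte genes had lower values in the upper spots, with a median log2 difference of -0.36 and 0 called. At an unadjusted p under 0.05 in edgeR there were 5 of the 8, against 431 of 5499 over all features. The part of oligodendrocyte content in the differences below was not tested.

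Ttr, which encodes transthyretin and is the dominant transcript of choroid plexus, differed most. It had 1945, 4283, 3799 and 1542 CPM in the upper and 411, 407, 184 and 541 CPM in the lower spots, with no overlap. The log2 difference was 2.66 ± 0.192 (SE; edgeR, adjusted p = 3.82e-14), and it was called with any section left out. Prkcd, the relay marker, was also higher in the upper spots, by 1.22 ± 0.226, with 429, 90.5, 217 and 57.0 CPM against 140.1, 129, 55.2 and 20.8 CPM. The direction was opposite in MF replicate 2, and the call was kept only without that section among the 4 left out in turn. The part of neighbouring tissue in these differences was not tested.

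Other genes were graded too. Pcp4l1, which encodes a small calmodulin-binding protein, had 327, 297, 399.6 and 406 CPM in the upper and 184, 129, 166 and 171 CPM in the lower spots, and was called with any section left out. Of the 33 genes, Ttr and Pcp4l1 were the only ones called in each of these 4 fits. Lgi2 went from 318, 332, 350.5 and 364.5 to 179, 206, 248 and 154 CPM. The peptide genes Cck, Trh and Pnoc, which encode cholecystokinin, the thyrotropin-releasing hormone precursor and nociceptin, were higher by 0.85, 0.69 and 1.10 log2 units in the upper spots. The receptor genes Gabrd, Gabra4 and Adra1d, an adrenergic receptor gene, were higher by 1.40, 0.97 and 0.79. Gabrd, Gabra4 and Cck were lower in the reticular spots as a whole than in relay thalamus, Cck with 282 to 430.0 CPM against 1158 to 1493 CPM.

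The lower spots had more Nnat, an imprinted gene of immature and hypothalamic neurons, with 238, 231, 217 and 224 CPM in the upper and 440.5, 417, 331 and 408 CPM in the lower spots. Meis2 and Sema3e, genes of a homeobox factor and a guidance molecule, were 0.81 and 0.94 log2 units lower in the upper spots. Hap1 and Zcchc12, genes found widely in the hypothalamus, differed in the same direction by 1.07 each. Pmch was called lower in the upper spots, with 225, 126, 14.02 and 0 CPM there and 1067, 101, 73.6 and 0 CPM in the lower spots. MF replicate 2 went the other way, and without MF replicate 1 Pmch was not called (-0.23, edgeR, adjusted p = 0.970). The count of 33 genes went to 7 without MF replicate 1, 11 without HF replicate 1 and 19 without HF replicate 2.

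**Figure D4:**
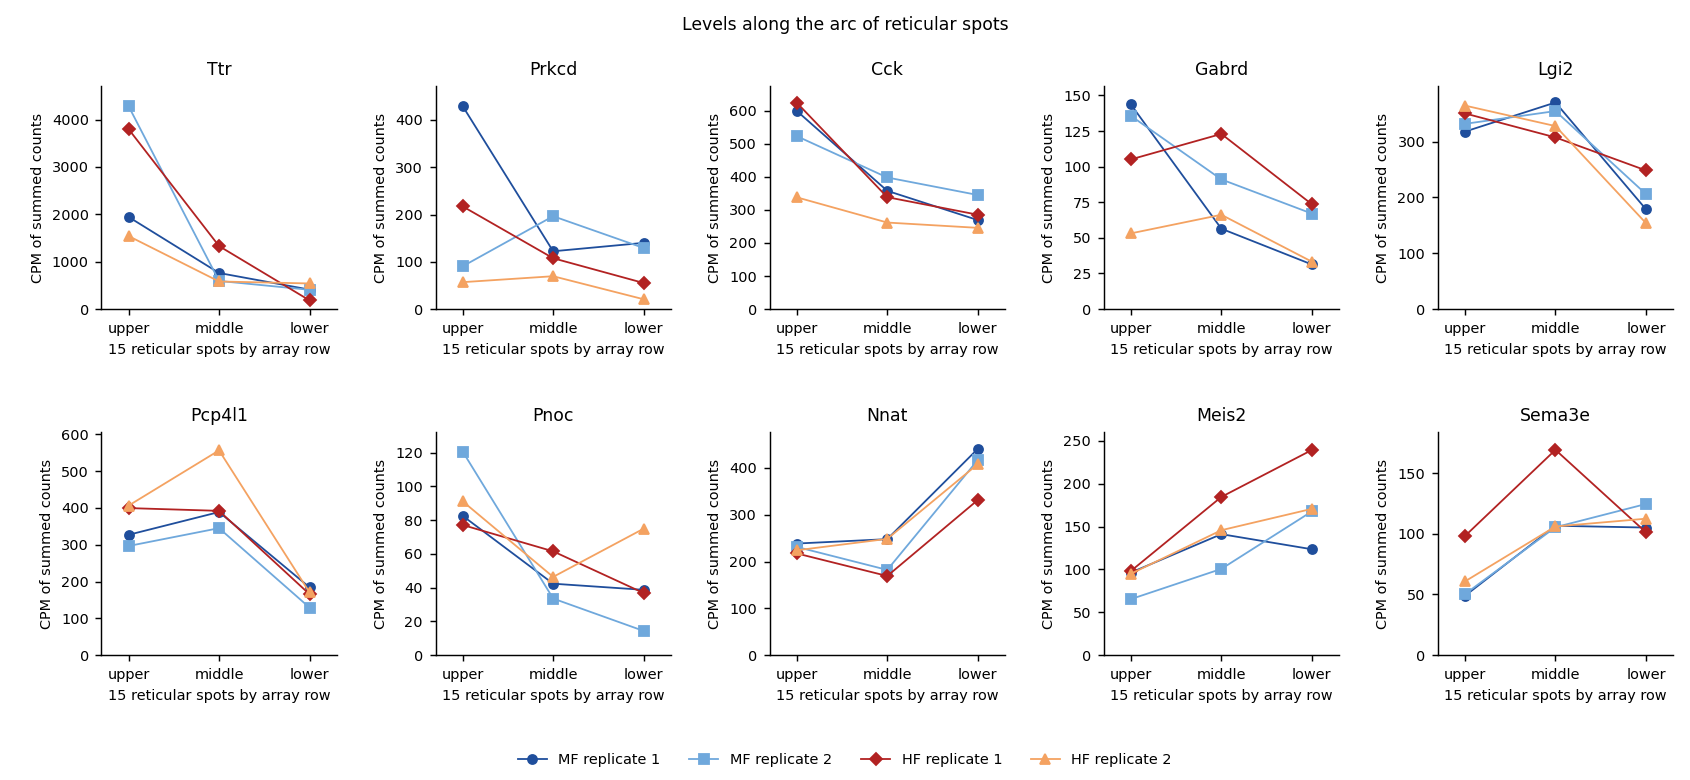
Levels in the upper, middle and lower 15 reticular spots of each section, as CPM of the summed counts. Ttr, Cck and Lgi2 are higher in the upper than in the lower spots of every section and Nnat and Meis2 lower, while Prkcd is higher in the upper spots of 3 of the 4 sections.

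The comparison of diets asked which genes of the nucleus differed between pups of HF and MF dams. Counts were summed over the 45 spots of each section, which makes the section the replicate, and fewer cells of a type and less RNA per cell cannot be told apart in such sums. Of 9426 genes tested with edgeR's quasi-likelihood test, 2 (0.0212%) were higher in HF and 5 (0.053%) lower, at an adjusted p under 0.05 and at least 1.2-fold. At an unadjusted p under 0.05 there were 549. The 2 HF sections lay on the same side of both MF sections for 35.0% of all genes tested, so such separation is common here.

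Peptides of the lateral hypothalamus led the lower genes. Pmch had 558, 117, 49.8 and 0 CPM in the reticular spots. Both MF sections lay above both HF sections, with MF replicate 1 far above MF replicate 2. The log2 difference was -4.45 ± 0.556 (SE; edgeR, adjusted p = 2.04e-05), and it was called without any 1 section. Its size was set by single sections, at -2.78 without MF replicate 1, -5.02 without MF replicate 2 and -2.92 without HF replicate 2. Without HF replicate 1, the remaining HF section was at 0 and the fitted value of -11.67 is no measure of size. Hcrt, the orexin precursor, had 52.9, 16.2, 5.24 and 0 CPM, or 97, 10, 2 and 0 UMIs, with a difference of -4.51 ± 0.727 (adjusted p = 0.00134) and of -2.99 without HF replicate 2. Without MF replicate 1 its counts were too low to be tested. Cartpt, which encodes the CART peptide, had 43.1, 29.2, 13.1 and 2.48 CPM and a difference of -2.69 ± 0.494 (edgeR, adjusted p = 0.00812). It was not called without MF replicate 1 (adjusted p = 0.999) or HF replicate 2 (adjusted p = 0.361).

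These peptides were at least as high outside the nucleus. In all other spots Pmch had 691, 503, 324 and 0.719 CPM, the same order of sections. The 9 hypothalamus markers summed to 998, 458, 364 and 610 CPM in the reticular spots. Of the 6 tested between diets, 5 were lower and 1 was higher in HF, with a median log2 difference of -0.63. The part of hypothalamic tissue in the diet difference was not tested.

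Prkcd fell in HF as well, with 237, 140, 134 and 50.9 CPM and a log2 difference of -1.30 ± 0.258 (edgeR, adjusted p = 0.0205). MF replicate 2 and HF replicate 1 were nearly equal, and the difference was -0.60 without HF replicate 2 (adjusted p = 0.377) and -0.77 without MF replicate 1 (adjusted p = 0.999). The other 7 relay thalamus markers were not called, and 6 of them had negative differences.

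Mt2, which encodes a metal-binding metallothionein, was also lower in HF. It had 595, 540.3, 312 and 322 CPM, so that both HF sections lay below both MF sections. The log2 difference was -0.86 ± 0.161 (edgeR, adjusted p = 0.00959), and -0.89 without HF replicate 2 (adjusted p = 0.00728). It was not called without MF replicate 1 (-0.79, adjusted p = 0.793) or MF replicate 2 (-0.91, adjusted p = 0.171). The same gene had 549, 496, 354 and 289 CPM in all other spots.

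Avp and Egr1 were the genes called higher in HF. Avp, the vasopressin precursor, had 29.4, 19.5, 44.6 and 155 CPM, with a log2 difference of 2.08 ± 0.308 (edgeR, adjusted p = 0.000381) that went to 0.73 without HF replicate 2 (adjusted p = 0.680). In that section Avp reached 475 CPM in the other spots, against 2.29, 2.39 and 10.9 CPM in the rest. Egr1, an immediate early gene induced by neuronal activity, had 21.3, 45.4, 52.4 and 117 CPM, a difference of 1.697 ± 0.302 (adjusted p = 0.00585), which was 0.88 without HF replicate 2 (adjusted p = 0.536) and 0.98 without MF replicate 1 (adjusted p = 0.993). MF replicate 2 and HF replicate 1 were close to each other for Egr1. In the relay thalamus spots Egr1 was called too, with a difference of 1.66 (edgeR, adjusted p = 0.0499). Rbms1, which encodes an RNA-binding protein, missed the threshold, with 34.9, 38.9, 89.1 and 74.5 CPM and a difference of 1.13 (adjusted p = 0.0603).

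The calls depended on the set of spots and on the tool. With the score taken without Spp1, 0 genes were called in edgeR (583 at an unadjusted p under 0.05), and with all spots thinned to 5000 UMIs 0 were called (309 at an unadjusted p under 0.05). DESeq2 called 0 genes on the same sums, with 63 at an unadjusted p under 0.05. Without MF replicate 1 the count in edgeR was 3, and without HF replicate 1 it was 42.

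Genes that define the nucleus were not called between diets. All 9 further reticular markers had a higher level in HF in the fit, with a median log2 difference of 0.33 against -0.0046 over all genes. Between the diets, 7 of the 9 did not overlap, against 3295 of 9422 over all genes. At an unadjusted p under 0.05 in edgeR there were 4 of the 9, all higher in HF, against 549 of 9422 over all genes. HF replicate 2 had the strictest cut, at a score of 1.57 against 0.946 to 1.15 in the other sections, and the highest Six3 and Gad2. Without that section the median was 0.36. The part of the cut in these levels, and in the diet differences of other genes of the reticular spots, was not tested. Gad2 had 851 and 840.4 CPM in MF and 1101 and 1195 CPM in HF (difference 0.43 ± 0.155, edgeR, adjusted p = 0.797). Ecel1 had a difference of 0.89 ± 0.194 (adjusted p = 0.0618), Slc32a1 of 0.47 ± 0.186 (adjusted p = 0.854) and Isl1 of 0.54 ± 0.261 (adjusted p = 0.854). The rule genes are given as description: Six3 had 433 and 524 CPM in MF and 674 and 823 CPM in HF.

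Channel, receptor and glial groups showed no called gene. Of 12 fast-spiking channel genes 4 were higher and 8 lower in HF, with a median of -0.06, and of 12 GABA-A receptor subunit genes 4 were higher and 8 lower, with a median of -0.10. The 10 low-threshold and pacemaker channel genes had a median of 0.02. All 8 oligodendrocyte genes were lower in HF in the fit, with a median of -0.30, which was -0.11 without HF replicate 2. Mbp had 17965, 23357, 19538 and 15721 CPM, so MF replicate 1 lay below HF replicate 1.

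Of 14 immediate early genes, 11 had higher and 3 lower values in HF, with a median of 0.43, and Egr1 was the called one. At an unadjusted p under 0.05 in edgeR there were 5 of the 14, all higher in HF. Arc had 106, 144, 212 and 161 CPM (difference 0.58 ± 0.192, edgeR, adjusted p = 0.726), both HF sections above both MF sections. Dusp1, which encodes a phosphatase that acts on MAP kinases, had 14.7, 22.7, 60.3 and 36.0 CPM (difference 1.37 ± 0.348, adjusted p = 0.269). Egr1 in the other spots followed the same order, with 49.6, 58.2, 157 and 344 CPM. The 13 genes of folate and one-carbon metabolism tested had a median of -0.03, with 0 called in edgeR (0 at an unadjusted p under 0.05). For the 15 clock genes the median was -0.11, with 0 called (4 at an unadjusted p under 0.05). Over all features, 549 of 9422 were at an unadjusted p under 0.05.

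**Figure D5:**
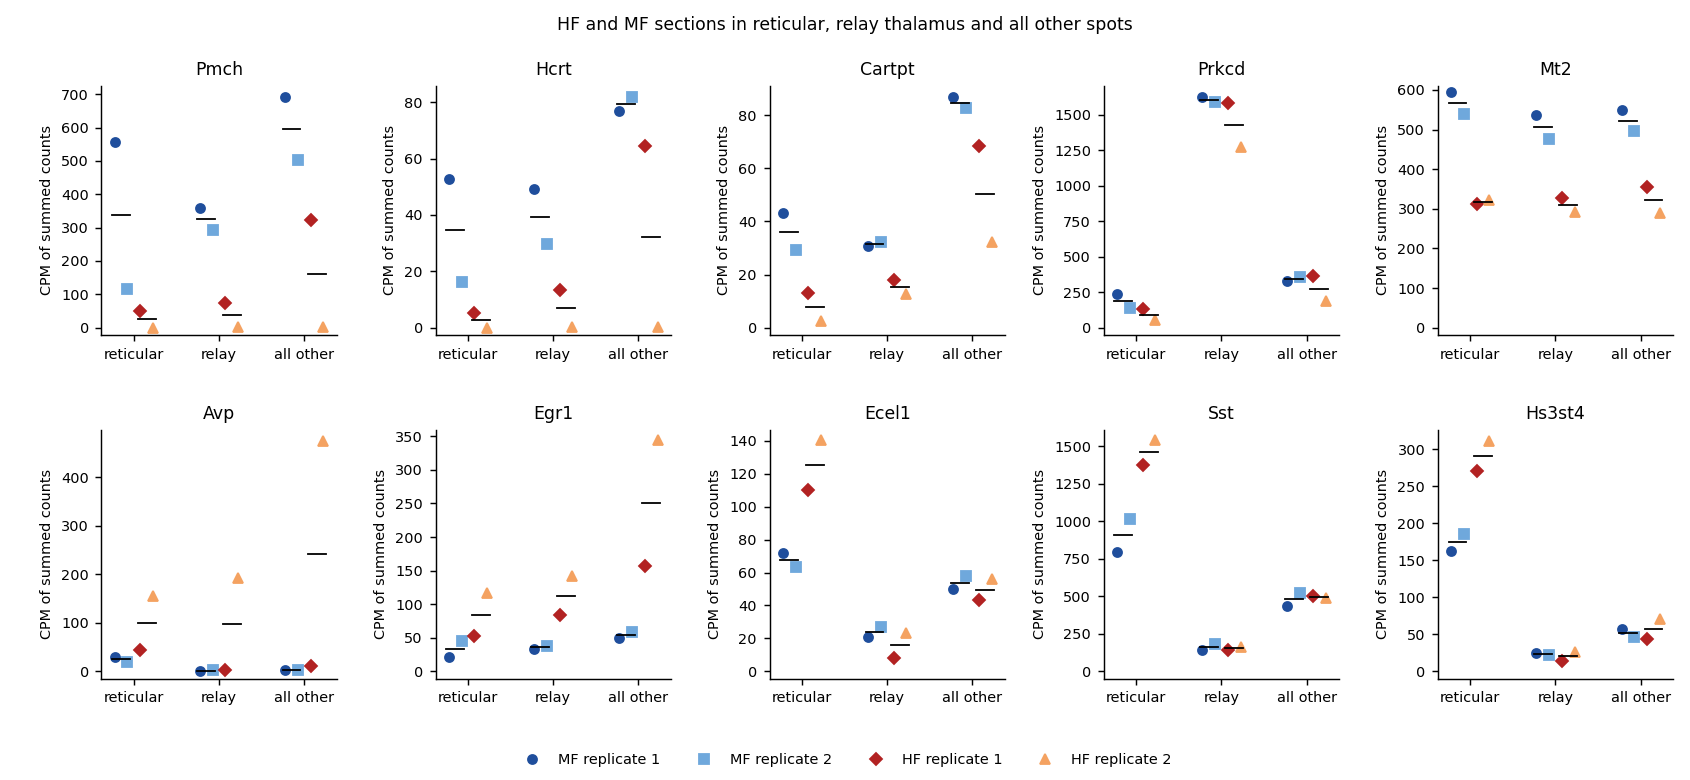
CPM of summed counts in reticular, relay thalamus and all other spots for each MF (blue) and HF (red, orange) section, with horizontal bars at the mean of each diet. Pmch, Hcrt and Avp in HF replicate 2 are at the low or high end in all 3 sets of spots, while Ecel1, Sst and Hs3st4 are higher in both HF sections in reticular spots only among the 3 sets shown.

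Whether the diet difference in the nucleus departed from that elsewhere was tested with a term for spot set by diet in edgeR, with section as a block. Against all other spots, 8 of 14388 genes (0.0556%) passed, and against the relay thalamus spots 8 of 11984 (0.0668%). Avp, Prkcd, Sst, Ecel1 and Hs3st4 were called in both comparisons, which share the reticular spots.

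Sst, the somatostatin gene, gave the most stable difference from relay thalamus. It had 796, 1017, 1376 and 1540 CPM in the reticular spots, both HF sections above both MF sections, and 145, 185, 140.5 and 165 CPM in the relay thalamus spots, where the diets overlapped. The diet difference was larger in the nucleus by 0.79 ± 0.124 on the log2 scale (edgeR, adjusted p = 9.27e-05), with adjusted p between 0.00198 and 0.00667 when each section was left out. Against all other spots it was 0.64 ± 0.126 (adjusted p = 0.00129), and that call was lost without MF replicate 1, MF replicate 2 or HF replicate 2, with the replicate block (adjusted p = 0.235) and with 30 spots per section (adjusted p = 0.390). In the nucleus alone, Sst did not pass (difference 0.68 ± 0.163, adjusted p = 0.166).

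Ecel1 and Hs3st4, which encodes a heparan sulfate sulfotransferase, behaved alike in direction. Ecel1 was uneven among spots. The 2, 3, 6 and 6 reticular spots outside groups of 5 or more touching spots had 80.6, 260, 233 and 520 CPM of it. The medians over all 45 spots were 60.8, 50.6, 84.6 and 72.9 CPM. With only the reticular spots in groups of 5 or more, 2 genes were called between diets, and Ecel1 was not among them. The part of the outlying spots in its difference from relay thalamus was not tested. Hs3st4 had 163, 185, 270.1 and 312 CPM in the reticular spots and 25.3, 22.3, 14.3 and 26.0 CPM in relay thalamus, and the diet difference was larger in the nucleus by 1.03 ± 0.215 (edgeR, adjusted p = 0.0144). For Ecel1 it was larger by 1.36 ± 0.278 (adjusted p = 0.0123). Without HF replicate 2 these were 1.40 and 2.08, both called, and without HF replicate 1 they were 0.76 and 0.99, neither called. Hs3st4 was also not called without MF replicate 1 (0.79), nor Ecel1 without MF replicate 2 (1.16). Gad2 also differed from relay thalamus, by 0.65 ± 0.134 (adjusted p = 0.0123), and was called without HF replicate 2 but not without any of the other sections.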

How the data were processed

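Visium-FFPE counts of 4 sections were used. Probe reads had been mapped to mm10 in Space Ranger 2.0.0, and the authors deposited raw UMI counts of 19465 features per spot under tissue, with spot positions and no normalization. The reticular spots, gene lists and tests were chosen with earlier results of these data known. Spots were filtered, scored and summed per section in Python 3.11.15 (numpy 2.4.6, scipy 1.17.1, pandas 2.3.3), and gene positions come from GENCODE vM21. Sums were compared in edgeR 4.0.16 under R 4.3.3, by its quasi-likelihood test after TMM and filterByExpr (called at a Benjamini-Hochberg adjusted p under 0.05 and at least 1.2-fold), with DESeq2 1.42.0 as an alternative; the fits were tested on simulated data. The study's Wilcoxon test over spots was not used, since spots of a section are not independent. Ratios to other spots were taken for features with a mean of at least 10 CPM. Named genes are members of 29 lists (295 of 298 genes measured), the 20 highest and 10 lowest ratios among features with at least 30 CPM, and, between diets, the called genes filled up to 5 per direction by p-value; those called for other terms were named afterwards. Other alternatives were 30 or 60 spots, touching spots, no Spp1 in the score, thinning to 5000 UMIs (9 to 510 spots per section left out), a replicate block, other scalings, no low-count filter, a fixed score and each section left out. Tables of spatial autocorrelation and image scale factors were not used.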

Additional observations from a re-analysis of the deposited data

Results flagged for a closer look

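Each result here is a diet difference (log2, HF over MF) that was tested to differ between the reticular spots and another set of spots of the same sections, and passed in edgeR. Given as the difference in the reticular spots minus that in all other spots, the values were -4.92 for Avp, -1.85 for Pmch, -0.67 for Ttr, -1.01 for Trh and -0.87 for Prkcd, and 0.64 for Sst, 0.92 for Ecel1 and 0.62 for Hs3st4. Minus that in relay thalamus spots, they were -4.27 for Avp, -1.11 for Prkcd, -2.65 for Cbln2 and -1.09 for Spg20, and 0.79 for Sst, 1.36 for Ecel1, 0.65 for Gad2 and 1.03 for Hs3st4. Avp had 475 CPM in all other spots of HF replicate 2 and at most 10.9 CPM in the other sections, and its values without that section were -1.51 and -0.39, neither called. Trh without HF replicate 2 turned to 0.99. Ttr was -0.04 without HF replicate 2 and -0.31 without MF replicate 2, neither called, -1.33 without HF replicate 1, and not called with the replicate block (adjusted p = 0.315). Pmch was -0.62 without MF replicate 1, not called. Against all other spots, Sst, Trh, Prkcd and Hs3st4 were also not called with the replicate block. Of the 16 differences, that of Sst from relay thalamus was the only one called with each section left out in turn. Cbln2, a synapse organiser gene, had 23.4, 19.5, 5.24 and 6.21 CPM in reticular spots, which rest on 43, 12, 2 and 5 UMIs.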

How the results depend on the processing

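The count of 7 genes called between diets in the reticular spots was 14 with no filter on low counts, 0 with DESeq2 (63 at an unadjusted p under 0.05), 3 with 60 spots per section, 2 with touching spots only, 0 with the score without Spp1 and 0 after thinning (583 and 309 at an unadjusted p under 0.05 in edgeR). It ran from 3 to 42 over the leave-one-out fits, with 3 without MF replicate 1 and 42 without HF replicate 1; the lone section of a diet was assumed to vary like the others. Chosen after seeing the data, a fixed score of 1.2 gave 7 and the band without its lower spots gave 10. The replicate block gave 8 genes, 7 of them shared. The deviations of same-numbered sections correlated at -0.02 over genes. This rests on a single contrast per diet and cannot tell whether the numbers pair the sections. For the difference from all other spots, the count of 8 was 3 with the replicate block, 3 with 30 spots and 2 to 13 with a section left out (3 without MF replicate 1, 3 without MF replicate 2, 13 without HF replicate 1, 2 without HF replicate 2). For the difference from relay thalamus, the 8 became 9 with the replicate block, 5 with 30 spots and 3 to 13 with a section left out (3 without MF replicate 1, 13 without HF replicate 1). The 33 genes between upper and lower spots ran from 7 to 27 with a section left out, and Ttr and Pcp4l1 were called in each of those fits. The 63 features at least 2-fold lower than elsewhere were 7 against spots within 2 steps, 101 with 30 spots, 36 with 60 spots, 38 after thinning and 77 to 148 with a section left out, while the 89 higher ones ranged from 70 to 111 over all settings. Hcrt reversed to 0.13 after thinning and Trh, against other spots, to 0.99 without HF replicate 2, with -2.58 without HF replicate 1 at the other end of its range. The cause of these changes was not tested. Depth limits the diet comparison most in HF replicate 1, whose reticular spots held 381410 UMIs against 1834569 in MF replicate 1.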
